A study of Homo sapiens with 10 samples.

Results

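The mitochondrial SLC25 carriers and the uncoupling proteins UCP1 to UCP3 were taken from the deposited count table by name, as every row whose symbol is SLC25A followed by a number or is UCP1, UCP2 or UCP3, which gave 51 of 22626 rows. MTCH1 and MTCH2, relatives of these carriers, do not match this rule. The rows were compared in ARPE-19, an established line of human retinal pigment epithelium (RPE), between 5 libraries of control cells, kept for 48 h in 5.5 mM glucose with 32 mM mannitol, and 5 libraries of high glucose cells, kept for 48 h in 37.5 mM glucose. The labels call the control cells normal glucose, and the high glucose medium held more glucose and no mannitol. The study asked what high glucose does to RPE cells. ARPE-19 is a single line in culture and its RPE markers were present in part. RPE65 had at most 6 counts in a library and TTR had 0 in all. The transcription factors OTX2 and MITF were at 29.8 to 36.3 and 8.46 to 12.8 FPKM over all libraries, the visual cycle genes RLBP1 and RDH5 at 4.57 to 7.34 and 4.02 to 5.89, and the epithelial keratins KRT8 and KRT18 at no less than 389.

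Most SLC25 proteins sit in the inner mitochondrial membrane, which small charged molecules do not cross by themselves, and each carries a set of metabolites, often by exchanging one for another. They bring ADP and phosphate in and let ATP out, pass reducing equivalents in the malate-aspartate shuttle, export citrate for fat and sterol synthesis, and deliver amino acids, cofactors, glutathione and iron. UCP1 lets protons leak back in brown fat, whereas UCP2 and UCP3 are relatives whose transported molecules are less settled, and RPE cells depend on mitochondrial oxidation for much of their work.

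Libraries held between 32448991 and 45864176 counts. TXNIP, a gene that cells induce in glucose, was at 0.978 ± 0.224 counts scaled to library size (CPM) in control and 8.72 ± 2.76 CPM in high glucose (SD, n = 5 each), and ARRDC4, its relative, was at 3.28 ± 0.438 and 5.49 ± 0.716 CPM, with no overlap between the groups for either. Of 12 RPE markers 9 passed the filter on low counts, and KRT8, KRT18 and PMEL among them were lower in high glucose. BEST1, another of them, stood apart in 2 control libraries, at 57.2 FPKM in replicate 1 and 120.3 in replicate 4, and was at 1.63 FPKM or less in each of the other libraries. Of 5 fibroblast markers COL1A1 and PDGFRB passed the filter and both were lower, of 4 endothelial markers KDR and VWF passed and KDR was lower, of 3 leukocyte markers CD68 passed and was higher, and of 4 neuronal or photoreceptor markers TUBB3 passed and was not called. DCN, LUM, CDH5 and PTPRC, among those that did not pass, had at most 4 counts in any library. Of those that passed, COL1A1 was at 3.11 to 11.1 FPKM over all libraries, PDGFRB at 14.6 to 32.6, CD68 at 29.5 to 74.8 and TUBB3 at 66.2 to 98.1. KDR was at 0.275 to 0.728 FPKM and VWF at 0 to 0.0543. The part of the marker shifts in the carrier results was not tested. In bulk RNA fewer cells of one kind and less RNA per cell cannot be told apart. High glucose library HG_1 and control replicate 2 stood apart from the others: genes rich in G and C were read more often in them, with a slope of 0.19 and 0.17 on the log2 scale per 10 points of GC content over all rows. Over the 45 carriers the same slope was 0.17 in HG_1 and 0.24 in control replicate 2, with a Pearson r of 0.57 and 0.70 across carriers, which share 1 library and are not independent. The counts of calls and the fold changes of the carriers were therefore also computed without both libraries, and so, chosen after seeing the data, were the FPKM ratios of related carriers and the share of counts they held.

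UCP2 and SLC25A5, the carriers that were called in all 22 alternative fits without a replicate block, are shown with the sequence before their starts, which is rich in CG dinucleotides. The bases upstream of both the RefSeq start (GRCh38.p14) and the GENCODE 29 gene start are given 5′ to 3′, with CG dinucleotides in capitals. That of UCP2 is chr11:73983308-73983452 on the minus strand, and that of SLC25A5 is chrX:119468194-119468399 on the plus strand.
UCP2: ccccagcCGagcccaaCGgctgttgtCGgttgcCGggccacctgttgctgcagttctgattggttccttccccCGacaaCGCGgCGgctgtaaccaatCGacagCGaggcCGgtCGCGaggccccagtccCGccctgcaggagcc
SLC25A5: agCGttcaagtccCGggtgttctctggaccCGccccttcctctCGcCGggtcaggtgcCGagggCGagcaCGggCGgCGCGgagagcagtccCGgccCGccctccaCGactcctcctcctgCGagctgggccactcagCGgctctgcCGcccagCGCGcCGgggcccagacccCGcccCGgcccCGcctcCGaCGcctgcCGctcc
UCP2 has 2 RefSeq starts, and the bases shown lie before the one farther upstream. In the 250 bases before a RefSeq start, UCP2 has 23 CG dinucleotides at that start and 26 at the other, SLC25A5 has 30 and UCP3 has 2. The median is 19.5 over the 54 windows found for 43 of the 51 carriers and 11 over all 35116 windows.

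Short motifs were searched on both strands in the same windows of 300 bases, 250 before and 50 after each RefSeq start. The E-box CACGTG was in 9 of 54 carrier windows (16.7%) and in 7.26% of all windows. The NRF1 element was in 9.26% against 5.78%, the ATF4-type element TGATGNAA in 1.85% against 3.62%, and the ERR element TCAAGGTCA in no carrier window against 0.353%. No window of a called carrier held any of these letters, and SLC25A16 and SLC25A30 were not among the genes matched.

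Levels among carriers were compared in FPKM, which are per length of transcript. The 51 carriers spanned from 0 to a mean of 211 FPKM over the 10 libraries, with 5 at 100 or above, 16 between 10 and 100, 18 between 1 and 10 and 12 under 1. The carriers of ADP, ATP and phosphate led: SLC25A5 was at 188 ± 12.3 FPKM in control and 234 ± 11.9 in high glucose, SLC25A6 at 173 ± 19.5 and 195 ± 26.2, and SLC25A3 at 158 ± 17.5 and 167 ± 14.9 (SD, n = 5). The citrate carrier SLC25A1 followed at 125 ± 17.2 and 156 ± 18.0 FPKM, and SLC25A39, a glutathione carrier, at 99.8 ± 9.46 and 108 ± 17.4. These 5 made up 63.6% of the summed FPKM of the family. In control cells the ranges of SLC25A5, SLC25A6 and SLC25A3 overlapped, as did those of SLC25A3 and SLC25A1 and those of SLC25A1 and SLC25A39. In high glucose the ranges of SLC25A5 and SLC25A6 still overlapped, as did those of SLC25A6 and SLC25A3 and those of SLC25A3 and SLC25A1. SLC25A5 then lay wholly above SLC25A3, and SLC25A1 wholly above SLC25A39. SLC25A23 and UCP2 came next: UCP2 was at 62.4 ± 6.09 FPKM and SLC25A23 at 51.8 ± 2.24 in control, and the order was turned in high glucose, at 41.6 ± 3.45 for UCP2 and 60.4 ± 3.79 for SLC25A23. The range of UCP2 in control began at 53.5 FPKM, below the 54.8 at which that of SLC25A23 ended, and in high glucose the highest UCP2 value was 47.6 and the lowest SLC25A23 value was 56.7.

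**Figure D1:**
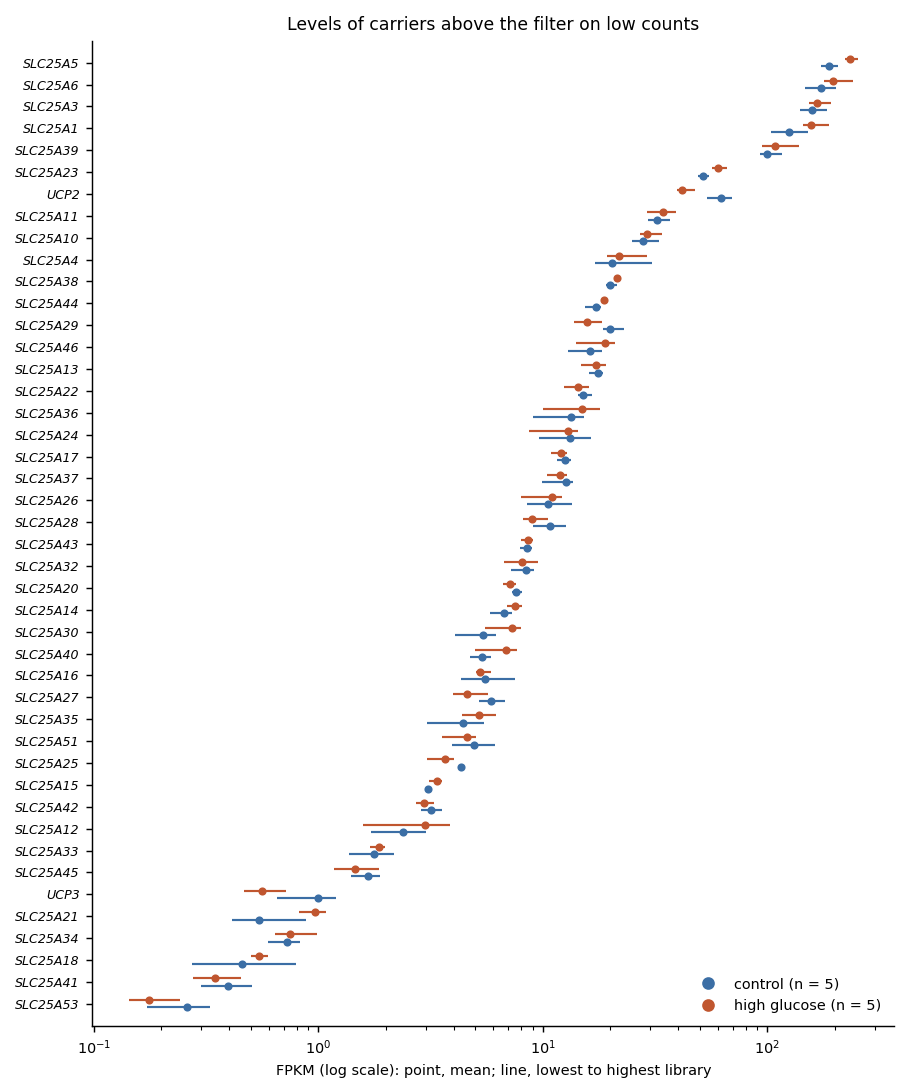
FPKM on a log scale of 44 of the 45 carriers that passed the filter on low counts, ordered by their mean over all libraries, with control in blue and high glucose in orange. Points are group means and lines run from the lowest to the highest of 5 libraries. SLC25A5 leads at 188 FPKM in control and 234 in high glucose, UCP2 is the most abundant carrier whose high glucose range lies wholly below control, and SLC25A53 is lowest.

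The other 6 carriers did not reach the filter. UCP1, the proton leak of brown fat, and SLC25A47, a carrier of liver, had 0 counts in every library, which allows up to 0.0654 to 0.0925 CPM per library for counting error only. SLC25A31, the ADP/ATP carrier of testis, had 5 counts in control replicate 2 and 0 elsewhere. SLC25A52, a NAD carrier, had 3, 2 and 1 counts in 3 high glucose libraries and 2 in 1 control library. SLC25A48, a carrier linked to choline, had 2, 3 and 4 counts in high glucose and 4 in control, and SLC25A2, an ornithine carrier, had 2 counts in high glucose and 4 and 2 in control. SLC25A6 lies in the pseudoautosomal region and a second row of the table, no member by the rule, held between 1.09% and 1.78% more counts than its own in every library, so both rows look at the same reads and SLC25A6 is counted once.

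Of the 45 carriers tested, 10 (22.2%) passed an adjusted p of 0.05 in the quasi-likelihood test of edgeR (Benjamini-Hochberg, over all rows), 6 higher and 4 lower in high glucose. Over all 14936 rows tested the share was 15.4%, with 7.62% higher and 7.80% lower. UCP2, UCP3 and SLC25A21 (3 carriers, 6.67%) also passed a fold of 1.5, against 3.69% of all rows, and the same 3 passed that fold with an unadjusted p under 0.05, against 5.17%. The groups did not overlap in CPM for 8 carriers (17.8%), against 13.6% of all rows. The median log2 fold change was 0.07 over the carriers and 0.0013 over all rows, and 28 of the 45 carriers were above 0, against 50.2% of all rows. Over the alternatives without a replicate block the carrier median ran from 0.026 with 1 surrogate variable to 0.105 without control replicate 2. The sign was the same under every alternative for 34 of the 45, and of the called carriers SLC25A16 alone changed it. Without both GC-rich libraries, 12 carriers (26.7%) and 27.1% of all rows passed. With the GC and length trend removed, 13 carriers (28.9%) and 29.3% of the 13538 rows with a GC value passed. Under both settings the carriers' share was not above that of the rows tested. By limma on log2(FPKM + 1) it was not above either, at 13.3% against 13.6%. The share was above with a mean FPKM of at least 1 in the same limma fit (17.9% against 15.9%), by DESeq2 (24.5% against 16.7%) and without the filter (16.3% against 11.1%). RLE normalization, scaling by library size alone and at least 10 counts in every library also left it above. Leaving out 1 library gave 3 without HG_2, 4 without HG_4 or control replicate 1, 5 without HG_3, HG_5 or control replicate 3 or 4, 7 without control replicate 5, and 10 without HG_1 or control replicate 2. In the same fits the share of carriers called was 6.67% against 11.3% of all rows without HG_2, 8.89% against 11.9% without HG_4 and 8.89% against 11.1% without control replicate 1. It was 11.1% against 11.9%, 12.0% and 11.8% without HG_5, control replicate 3 and control replicate 4, so the carriers' share lay below that of all rows in these 6 fits. In the other 4 it lay above, at 11.1% against 10.9% without HG_3, 15.6% against 11.5% without control replicate 5, 22.2% against 19.9% without HG_1 and 22.2% against 16.6% without control replicate 2. As nothing in the labels says that the libraries came from separate cultures, these p-values measure the spread between libraries, which may be technical. By the 95% interval of the fit, 37 of the 45 carriers stayed within a fold of 1.5 in either direction, and for 16 the interval stayed within 0.3 on the log2 scale. The exceptions were UCP2, UCP3, SLC25A30, SLC25A21, SLC25A12, SLC25A18, SLC25A41 and SLC25A53. Carrier counts made up 0.294% ± 0.0111 of all counts in control and 0.322% ± 0.0116 in high glucose (SD, n = 5), and the ranges did not overlap, with a highest control value of 0.309% and a lowest high glucose value of 0.314%. The ranges were 0.278% to 0.296% and 0.314% to 0.319% without both GC-rich libraries. In summed FPKM the carriers were at 1204 ± 82.6 in control and 1313 ± 65.0 in high glucose (SD, n = 5). Those ranges, 1100 to 1324 and 1277 to 1429 over all libraries, overlapped.

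**Figure D2:**
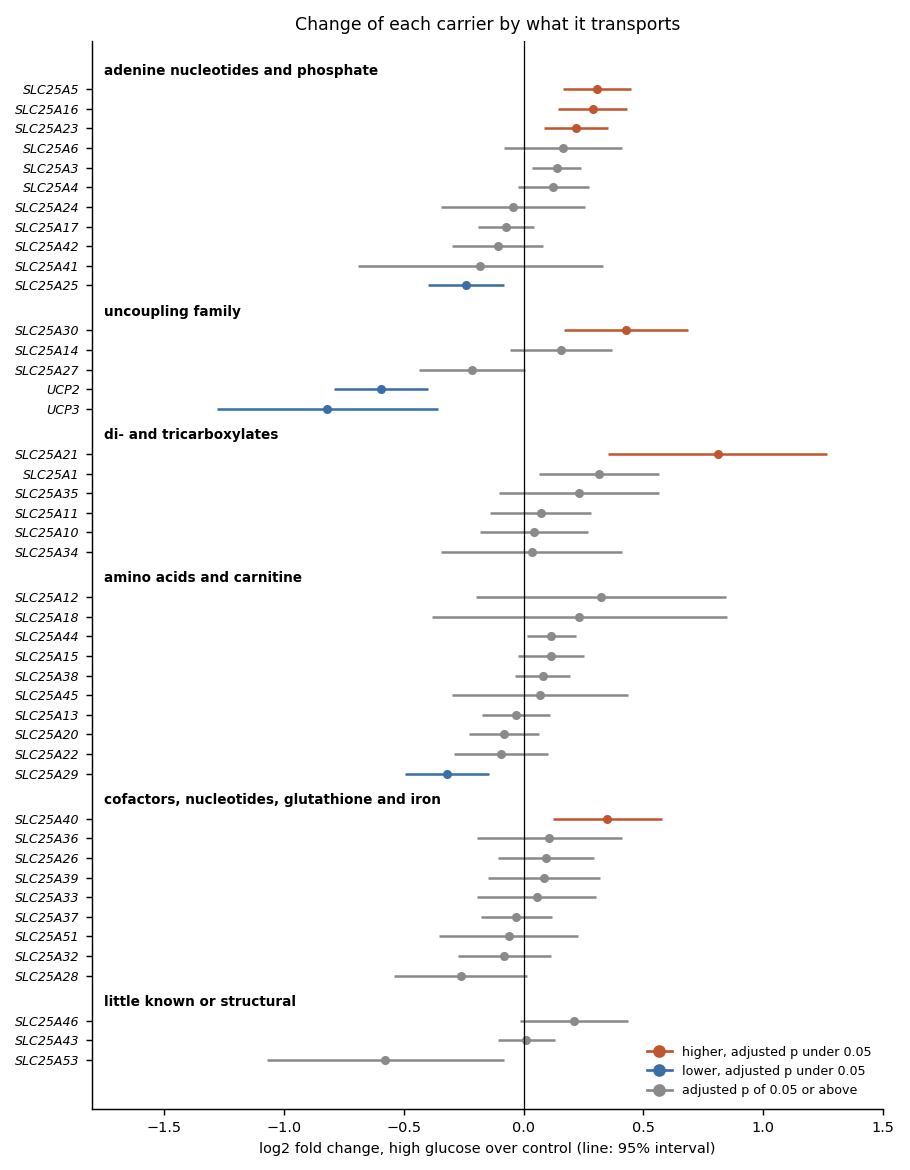
Log2 fold change of high glucose over control for 44 of the 45 carriers tested, grouped by what they transport, with the 95% interval of the edgeR fit as a line. Orange marks the 6 carriers that were higher and blue the 4 that were lower at an adjusted p under 0.05. Both lower members of the uncoupling group are UCP2 at -0.60 and UCP3 at -0.82, and SLC25A21 at 0.81 rose most.

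In the uncoupling group, with 5 members tested, UCP2 and UCP3 were lower and SLC25A30 was higher in high glucose (3 called, against 15.4% of all rows). UCP2, a widely expressed inner membrane protein linked to reactive oxygen and to the export of small carbon acids, was at 95.2, 126, 106, 116 and 112 CPM in control replicates 1 to 5 and at 87.5, 68.8, 69.4, 69.1 and 73.1 CPM in high glucose libraries HG_1 to HG_5. The 5 high glucose values all lay under the lowest control value, and the highest of them was the GC-rich HG_1. The log2 fold change was -0.60 ± 0.09 (SE), a fold of 1.51, with an edgeR adjusted p of 0.00137. Without both GC-rich libraries it was -0.61, and UCP2 was called in 10 of 10 fits that left out 1 library. UCP3, the form best known from muscle, was at 2.76, 2.44, 2.74, 1.54 and 2.11 CPM in control and 1.74, 1.24, 1.34, 1.03 and 1.22 CPM in high glucose. Only control replicate 4 and HG_1 overlapped, and in FPKM UCP2 stood above UCP3 by a ratio of 66.1 ± 21.1 in control and 74.8 ± 8.10 in high glucose. Its log2 fold change was -0.82 ± 0.21 with an edgeR adjusted p of 0.0230, from 34 to 114 counts a library. The call was lost without HG_2, HG_3, HG_4, HG_5, control replicate 1 or control replicate 3, with a highest adjusted p of 0.0605.

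SLC25A30, a kidney-named relative of the uncoupling proteins, moved the other way. It was at 19.9, 16.4, 24.1, 21.6 and 22.8 CPM in control and 22.3, 30.7, 28.0, 30.7 and 29.3 CPM in high glucose. Library HG_1 lay among the controls and the other high glucose libraries above all of them. Its log2 fold change was 0.43 ± 0.12 with an edgeR adjusted p of 0.0308, and 0.43 without both GC-rich libraries. The call was lost without HG_2, HG_3, HG_4, HG_5, control replicate 1 or control replicate 4, with a highest adjusted p of 0.0755. The antisense genes TPT1-AS1 and SLC25A30-AS1 overlap it, and whether the counting used strand is not given in the sources used here. SLC25A14 and SLC25A27, the remaining measured relatives, were at 0.16 (95% interval -0.06 to 0.37) and -0.22 (-0.44 to 0.01) and were not called.

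UCP2 and UCP3 are neighbours among the tested rows on chromosome 11 in GRCh38, UCP2 at 73974667-73983307 and UCP3 at 74000281-74009435, both on the minus strand, 16973 bases apart by GENCODE 29, with the 2 annotated genes AP003717.2 and AP003717.3 between them. The rows around them were looked at after the values of both were seen. The next tested genes beyond UCP3, C2CD3 and PPME1, were lower as well. C2CD3, a centriole protein, was at 63.4, 51.7, 59.3, 55.3 and 57.2 CPM in control and 39.9, 40.2, 38.1, 41.0 and 40.9 CPM in high glucose. PPME1, a methylesterase of protein phosphatase 2A, was at 341, 312, 269, 301 and 309 CPM in control and 173, 148, 149, 157 and 167 CPM in high glucose. Neither gene's groups overlapped, and the log2 fold changes were -0.52 and -0.95, with edgeR adjusted p-values of 0.000272 and 2.86e-05. Of 8 other tested rows within 250 kb of UCP2, 3 were lower and none higher by edgeR, where 7.80% of all rows were lower and 7.62% higher. These were UCP3, itself a called carrier, C2CD3 and PPME1. The genes on the other side, DNAJB13 at -0.27 (95% interval -1.08 to 0.54), PAAF1 at 0.09, COA4 at 0.03, MRPL48 at 0.16 and RAB6A at 0.04, were not called. Beyond 250 kb, PLEKHB1 at -0.54 and P2RY6 at -0.95 on that side and POLD3 at -0.34 on the side of PPME1 were lower, with edgeR adjusted p-values of 0.00906, 0.0213 and 0.0396, and no gene among those plotted was higher. For the other called carriers, 2 of 6 tested rows within 250 kb of SLC25A16 were higher like it. Around SLC25A23 1 of 15 rows was higher and 1 lower, and around SLC25A25 1 of 18 was lower and 1 higher. Around SLC25A29, which was lower, 1 of 5 was higher. The shares over all rows were again 7.62% higher and 7.80% lower. By edgeR none of 6 rows was called around SLC25A5, of 1 around SLC25A21, of 4 around SLC25A30 or of 3 around SLC25A40.

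**Figure D3:**
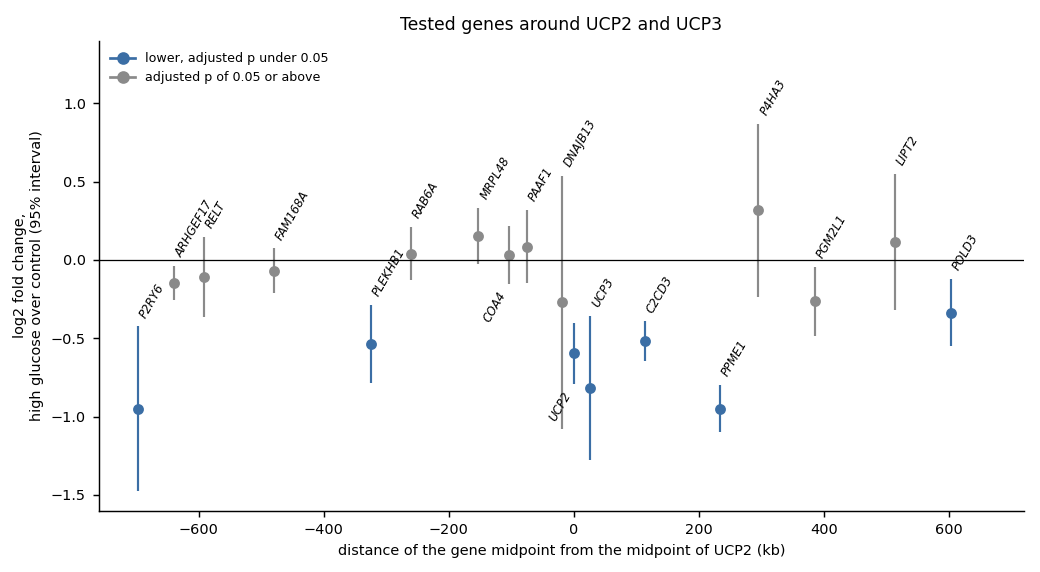
Log2 fold change of high glucose over control for the tested genes around UCP2, by the distance in kb of each gene's midpoint from that of UCP2, with the 95% interval of the edgeR fit. Blue marks an adjusted p under 0.05. UCP2 at -0.60, UCP3 at -0.82, C2CD3 at -0.52 and PPME1 at -0.95 stand next to each other, and PLEKHB1, P2RY6 and POLD3 farther out are also lower.

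Among the 11 tested carriers of adenine nucleotides, phosphate and coenzyme A, 3 were higher and 1 was lower (36.4% called, against 15.4% of all rows). SLC25A5, the ADP/ATP carrier of growing cells, was at 245, 298, 255, 272 and 259 CPM in control and 369.7, 307, 319.8, 327 and 320.03 CPM in high glucose. The lowest high glucose value lay above the highest control value, with the highest value of each group in its GC-rich library. The log2 fold change was 0.31 ± 0.06 with an edgeR adjusted p of 0.00934, and it was 0.31 without both GC-rich libraries and called in 10 of 10 fits that left out 1 library. It overlaps SLC25A5-AS1 on the other strand, and shares no stretch of 100 bases with another transcript in GENCODE 29. The paralogue SLC25A6 had a log2 fold change of 0.16 (95% interval -0.08 to 0.41) and SLC25A4, the ADP/ATP carrier of heart and muscle, of 0.12 (-0.02 to 0.27), neither called. The FPKM ratio of SLC25A5 to SLC25A6 was 1.09 ± 0.0599 in control and 1.21 ± 0.0903 in high glucose, with overlapping ranges. Without both GC-rich libraries it ranged from 1.06 to 1.18 in control and from 1.23 to 1.26 in high glucose, so the groups were then apart.

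SLC25A3, which brings phosphate in, was at 685, 751, 699, 723 and 706 CPM in control and 854, 753, 759, 769.5 and 785 CPM in high glucose. The groups did not overlap, and with a log2 fold change of 0.14 ± 0.05 the edgeR adjusted p was 0.0684. It passed without control replicate 2 at an adjusted p of 0.0368, and without both GC-rich libraries at 0.00785. With the GC and length trend removed the log2 fold change was 0.15 with an edgeR adjusted p of 0.266, and by limma on log2(FPKM + 1) it was 0.08 with 0.616. SLC25A16, linked to coenzyme A, was at 23.3, 25.5, 25.7, 29.9 and 26.8 CPM in control and 33.4, 31.7, 31.1, 31.9 and 32.1 CPM in high glucose, again without overlap. Its log2 fold change was 0.29 ± 0.07 with an edgeR adjusted p of 0.0133, and it was called in every fit that left out 1 library. In the deposited FPKM it did not rise: the means were 5.51 ± 1.22 in control and 5.26 ± 0.360 in high glucose, a log2 difference of -0.04 by limma on log2(FPKM + 1) with an adjusted p of 0.866. Of the 45 carriers, only SLC25A16 and SLC25A45 differed by more than 0.2 between the counts and the FPKM, against 2.78% of all rows, so the direction for SLC25A16 rests on the count table.

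The carriers of ATP-Mg for phosphate, which set the adenine nucleotide pool of the matrix under control of calcium, parted. SLC25A23 was at 172, 199, 186, 179.5 and 189 CPM in control and 243, 209, 217, 204 and 202 CPM in high glucose, without overlap, and its log2 fold change was 0.22 ± 0.06 with an edgeR adjusted p of 0.0322. SLC25A25 was at 16.3, 16.6, 15.4, 15.6 and 16.1 CPM in control and 11.9, 13.2, 14.8, 13.3 and 14.6 CPM in high glucose, without overlap, and its log2 fold change was -0.24 ± 0.07 with an edgeR adjusted p of 0.0474. The call of SLC25A23 was lost without HG_2, HG_3, control replicate 1, 3, 4 or 5, with a highest adjusted p of 0.0780. That of SLC25A25 held only without HG_3 and was lost without each other library, with a highest adjusted p of 0.102, and without both GC-rich libraries its log2 fold change was -0.18 with an adjusted p of 0.0687. The FPKM ratio of SLC25A23 to SLC25A25 ranged from 10.98 to 12.5 in control and from 14.2 to 21.7 in high glucose. CRB3 overlaps SLC25A23 and NAIF1 overlaps SLC25A25 on the other strand, and neither was called. SLC25A24 was at -0.04 (95% interval -0.35 to 0.26) and SLC25A41 at -0.18 (-0.69 to 0.33), and the carriers of coenzyme A and its relatives SLC25A42 at -0.11 and SLC25A17 at -0.07, none called.

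All 6 carriers of di- and tricarboxylates had a log2 fold change above 0 (against 50.2% of all rows), between 0.03 and 0.81, although SLC25A34 and SLC25A10 fell below 0 under some alternatives, and 1 was called (16.7%, against 15.4% of all rows). SLC25A21, which carries 2-oxoadipate and 2-oxoglutarate, was at 1.94, 1.79, 2.21, 1.91 and 3.68 CPM in control and 3.74, 4.14, 4.41, 4.53 and 3.44 CPM in high glucose. Control replicate 5 stood inside the high glucose range and the other control libraries below it. The log2 fold change was 0.81 ± 0.21 with an edgeR adjusted p of 0.0235, and it was 0.76 without both GC-rich libraries. The call was lost without HG_2, HG_3, HG_4, control replicate 1, control replicate 3 or control replicate 4, with a highest adjusted p of 0.0607. Its span holds the antisense genes PAX9 and SLC25A21-AS1.

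SLC25A1, which exports citrate for lipid synthesis, was at 174, 261, 204, 202 and 205 CPM in control and 325, 245, 252, 239 and 239 CPM in high glucose. The only control library in the high glucose range was the GC-rich replicate 2, and the highest library was the GC-rich HG_1. The log2 fold change was 0.31 ± 0.11 with an edgeR adjusted p of 0.0915, so it was not called. Without both GC-rich libraries it was 0.32 with an adjusted p of 0.00272, without control replicate 2 alone it was 0.41 with 0.0182, and without HG_1 alone it was 0.23 with 0.128. SLC25A11, the oxoglutarate carrier of the malate-aspartate shuttle, was at 0.07 (95% interval -0.14 to 0.28), and the dicarboxylate carrier SLC25A10 at 0.04 (-0.18 to 0.27). SLC25A10 shares 55.5% of its 100-base windows with an overlapping transcript, AC139530.2, so its count may be split. SLC25A35 and SLC25A34 were at 0.23 and 0.03. RANGRF overlaps SLC25A35 on the other strand and was higher, at 0.43 with an edgeR adjusted p of 0.0335.

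Of the 10 tested carriers of amino acids and carnitine, 1 was lower (10.0% called, against 15.4% of all rows). SLC25A29, a carrier of arginine, lysine and other basic amino acids, was at 59.1, 71.5, 59.7, 59.8 and 57.1 CPM in control and 56.8, 48.1, 50.3, 45.6 and 45.6 CPM in high glucose. The groups did not overlap, and the highest value of each was in its GC-rich library. The log2 fold change was -0.32 ± 0.08 with an edgeR adjusted p of 0.0210, and -0.31 with 0.000867 without both GC-rich libraries. The call was lost without HG_2, HG_4 or HG_5, with a highest adjusted p of 0.0551. SLC25A44, which brings in branched-chain amino acids, was at 67.6, 59.5, 63.5, 66.4 and 67.8 CPM in control and 71.6, 68.9, 69.6, 71.6 and 70.1 CPM in high glucose, without overlap, and at 0.11 ± 0.05 had an edgeR adjusted p of 0.129.

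The aspartate-glutamate carrier SLC25A13 stood above SLC25A12 in FPKM by a ratio of 7.61 ± 1.41 in control and 6.36 ± 2.59 in high glucose, and the glutamate carrier SLC25A22 above SLC25A18 by 37.4 ± 13.6 and 26.3 ± 2.33. The ranges of both ratios overlapped between the groups. Without both GC-rich libraries that of SLC25A22 to SLC25A18 ran from 29.9 to 56.2 in control and from 23.8 to 29.2 in high glucose, so the groups only just parted. SLC25A18 had no more than 22 to 87 counts a library. The ratio of SLC25A13 to SLC25A12 still overlapped. SLC25A13 was at -0.03 (95% interval -0.17 to 0.11), SLC25A22 at -0.09 (-0.29 to 0.10) and SLC25A18 at 0.23 (-0.38 to 0.85) on the log2 scale. SLC25A12 ranged from 6.90 to 12.9 CPM in control and from 6.62 to 16.2 CPM in high glucose, the widest spread of any tested carrier in high glucose at a coefficient of variation of 29.6%, and at 0.32 (-0.20 to 0.85) was not called. HAT1 and METAP1D lie on its other strand. The ornithine carrier SLC25A15 was at 0.11 (-0.03 to 0.25), the glycine carrier SLC25A38 at 0.08 and the carnitine-acylcarnitine carrier SLC25A20 at -0.08. SLC25A45 was at 0.07 in the counts and -0.19 on log2(FPKM + 0.1), and was called in neither.

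Of the 10 tested carriers of cofactors, nucleotides, glutathione and iron, 1 was higher (10.0% called, against 15.4% of all rows). SLC25A40, a paralogue of the glutathione carrier SLC25A39, was at 19.6, 20.2, 23.7, 23.8 and 22.8 CPM in control and 21.8, 30.3, 26.6, 31.3 and 30.1 CPM in high glucose. HG_1 lay among the controls and the other high glucose libraries above all of them. The log2 fold change was 0.35 ± 0.10 with an edgeR adjusted p of 0.0440, and 0.40 with 0.00515 without both GC-rich libraries. The call held only without HG_1 among the fits that left out 1 library, with an adjusted p of up to 0.106 without the others. DBF4 overlaps it on the other strand and was at 0.21, not called. SLC25A39 was at 0.08 (95% interval -0.15 to 0.32), and stood above SLC25A40 in FPKM by a ratio of 18.8 ± 3.42 in control and 16.6 ± 6.34 in high glucose, with overlapping ranges. When both GC-rich libraries were left out, the ratio ran from 16.09 to 19.5 in control and from 12.7 to 16.08 in high glucose, so the groups only just parted.

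Of the mitoferrins, which bring in iron, SLC25A37 was at -0.03 (95% interval -0.18 to 0.12) and SLC25A28 at -0.26 (-0.54 to 0.02). The pyrimidine nucleotide carriers SLC25A36 and SLC25A33 were at 0.11 (-0.20 to 0.41) and 0.05 (-0.20 to 0.30), and the NAD carrier SLC25A51 at -0.06 (-0.35 to 0.23). None of these was called. SLC25A26, the carrier of S-adenosylmethionine, was at 0.09, and SLC25A32, of folate, at -0.08. SLC25A32 shares 87.7% of its 100-base windows with the overlapping transcript AC012213.5, and SLC25A51 and SLC25A33 share 13.1% and 12.3% with other transcripts, so these 3 are uncertain. Among the 3 members that are little known or structural, SLC25A46, an outer membrane protein of mitochondrial shape, was at 0.21 (-0.02 to 0.44) and SLC25A43 at 0.01 (-0.11 to 0.13). SLC25A53 was at -0.58 (-1.07 to -0.08) with an edgeR adjusted p of 0.114, from 34 to 76 counts a library. ZCCHC18 overlaps SLC25A53 on the other strand and was at -0.41, not called.

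**Figure D4:**
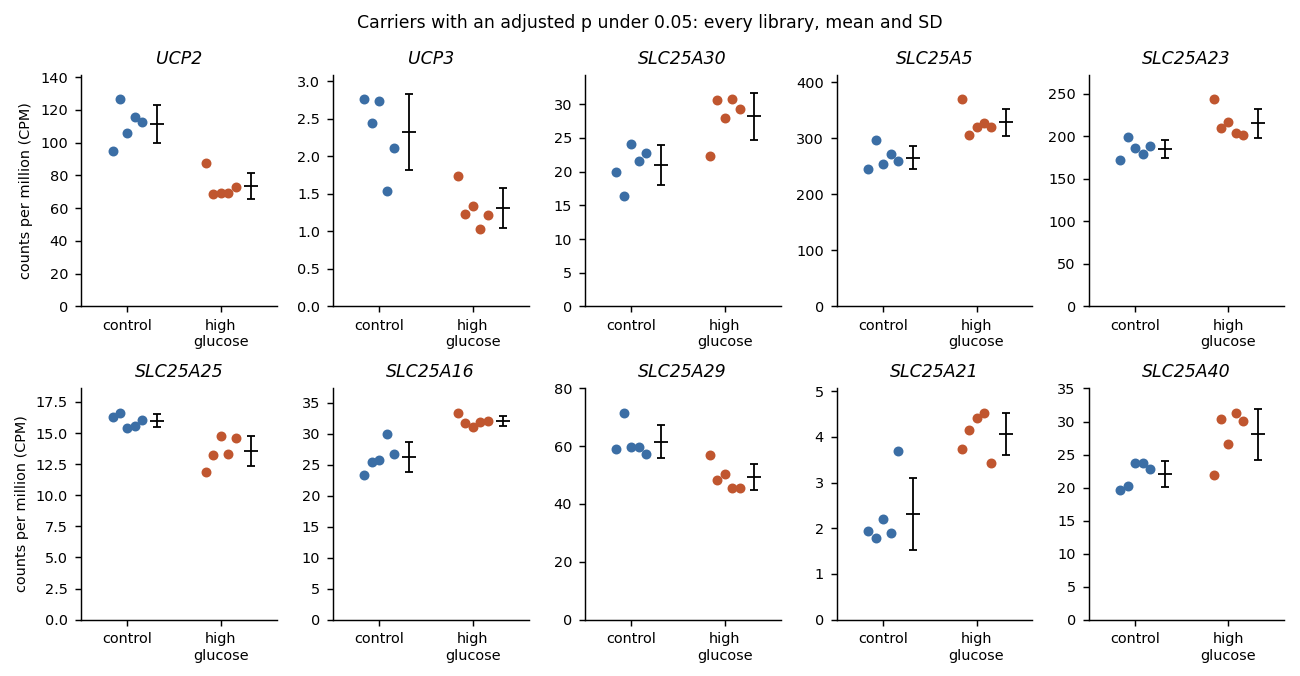
CPM (counts scaled to library size) of the 10 carriers with an adjusted p under 0.05, one point per library, with control in blue and high glucose in orange. Bars are the mean and SD of 5 libraries and each axis starts at 0. UCP2, SLC25A5, SLC25A23, SLC25A25, SLC25A16 and SLC25A29 show no overlap between the groups.

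Genes that work beside the carriers were taken from 3 lists and counted with the same test. The lists were chosen with earlier results of these data known, so their counts are not independent evidence. Of 28 partner enzymes, which make or use what the carriers move, 13 were higher and 2 were lower by edgeR, where 7.62% of all rows were higher and 7.80% lower, with a median log2 fold change of 0.22 against 0.0013 over all rows. PCK2, which makes phosphoenolpyruvate in mitochondria, was at 1.34 and ALAS1, the first enzyme of heme synthesis, at 0.66. GOT1 and MDH1, cytosolic enzymes of the malate-aspartate shuttle, were at 0.61 and 0.36, while their mitochondrial partners GOT2 at 0.10 and MDH2 at 0.15 were not called. The folate enzymes MTHFD2, SHMT2 and MTHFD1L were at 0.58, 0.54 and 0.27, and ACLY, which splits exported citrate, was at 0.49. MAT2A at 0.28, DCAKD at 0.36, CPT1A at 0.22, OAT at 0.22 and GLUD1 at 0.21 also rose. CPT1C, a form of brain, was at -0.56 and TYMS, which makes thymidylate, at -0.32.

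Of 16 other mitochondrial membrane proteins, most of them transporters or pores, 4 were higher and 1 was lower (against the same 7.62% and 7.80% of all rows), with a median of 0.09. MPC1 and MPC2, which together form the pyruvate carrier, were at 0.51 and 0.23, and VDAC1 and VDAC2, pores of the outer membrane, at 0.14 and 0.20, while SFXN2, a sideroflexin, was at -0.49. Of 16 parts of the machinery that imports carriers into the inner membrane, 3 were higher and none lower by edgeR (again against 7.62% and 7.80%), with a median of 0.10: TIMM9 at 0.41, TIMM10B at 0.30 and TOMM6 at 0.31. The partner TIMM10 of TIMM9 was at 0.31 with an edgeR adjusted p of 0.113.

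**Figure D5:**
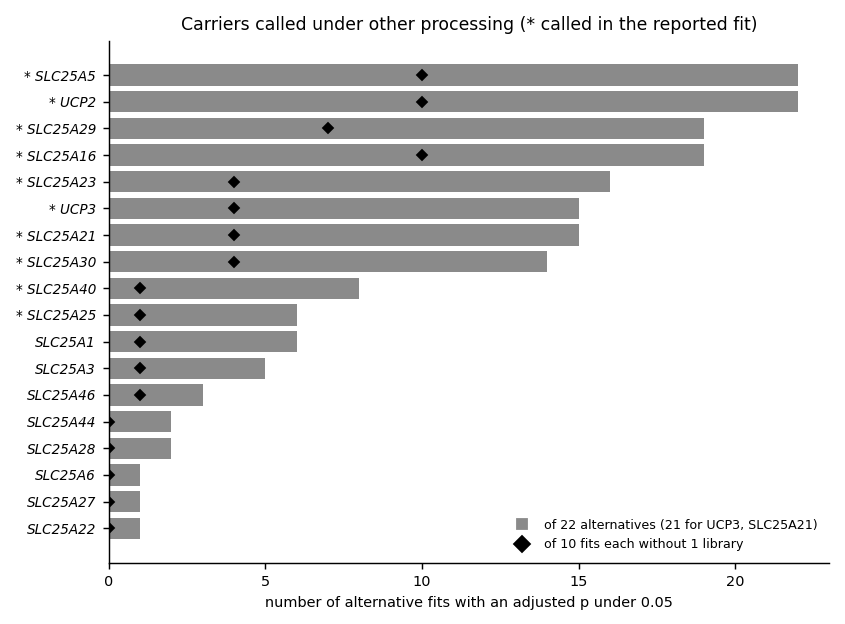
Number of alternative fits with an adjusted p under 0.05, for the carriers with at least 1 such fit, as bars out of 22 without a replicate block (21 for UCP3 and SLC25A21, which fall below 1 FPKM), and number of the 10 fits without 1 library, as diamonds. An asterisk marks the 10 carriers called in the reported fit. UCP2 and SLC25A5 reach 22 and 10, SLC25A16 reaches 19 and 10, and SLC25A25 and SLC25A40 reach 6 and 8 with 1 diamond each.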

How the data were processed

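RNA of ARPE-19 cells was sequenced in 5 control and 5 high glucose libraries. The authors deposited a table of whole-number read counts per gene and library, not normalized, and a table of FPKM values for the same rows, scaled by transcript length and depth. The submitters' processing notes name fastp 0.20.1, HISAT2 2.2.1 and GRCh38, and the counting program and its strand setting are not given in the sources used here. The control columns match single samples, and the high glucose columns match only the group, so those libraries are named HG_1 to HG_5. Rows named MSTRG held 1.34% to 1.65% of the counts of a library, and 0 columns of values were left out.

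The counts were tested in R 4.3.3 with edgeR 4.0.16 (default filter on low counts, TMM, quasi-likelihood test) over 14936 rows, with p-values adjusted by Benjamini-Hochberg across those rows. CPM are counts scaled to the TMM-adjusted library size. On simulated counts the same steps were tested before use. The FPKM were tested with limma 3.58.1 on log2(FPKM + 1) and log2(FPKM + 0.1), where a fold change is on the scale of value plus pseudocount and understates the change of low genes. Other alternatives were DESeq2 1.42.0, no filter on low counts, RLE normalization, scaling by library size alone, at least 10 counts in every library, rows without MSTRG, a mean FPKM of at least 1, each library left out, both GC-rich libraries left out, removal of the GC and length trend, and 1 surrogate variable from sva 3.50.0.

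Named in full are carriers with an adjusted p under 0.05. Named by value are the 5 most abundant, UCP1 to UCP3, paralogue pairs and members under the filter, and list genes only where called. Any other gene was named after its values were seen. The members and lists were chosen with earlier results of these data known. The floor of 3 counts covers counting error only, whereas the 95% intervals of fold changes come from the edgeR fit and include the spread between libraries. FPKM ratios and the carriers' share of counts without both GC-rich libraries, and a fit with the column number as a replicate block, were added after seeing the data. Gene positions are from GENCODE 29. Protein sequences were not used here. The values of 1 carrier and 1 marker are not reported here, and both are counted in the totals.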

Additional observations from a re-analysis of the deposited data

Results flagged for a closer look

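In 13 of 88 groups of 5 libraries, 1 library lay outside the others by the Dixon ratio, whose critical value is 0.71 and which chance alone would exceed in about 4.4. Most were in the GC-rich libraries. In high glucose library HG_1, SLC25A1 was at 324.5 CPM (others up to 252), SLC25A6 at 392 (289), SLC25A39 at 218 (166), UCP2 at 87.5 (73.1), SLC25A10 at 71.1 (56.4) and SLC25A28 at 18.0 (14.6). In control replicate 2, SLC25A39 was at 194 CPM (others up to 158), SLC25A29 at 71.5 (59.8), SLC25A22 at 47.5 (41.0) and SLC25A45 at 4.44 (3.53), and SLC25A36 was low at 54.9 CPM (others from 73.4). The part of GC content in these values was not tested gene by gene. SLC25A21 was at 3.68 CPM in control replicate 5 (others up to 2.21), and SLC25A26 at 22.2 CPM in HG_3 (others up to 17.4).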

How the results depend on the processing

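The 10 carriers called became 6 by limma on log2(FPKM + 1) and 6 on log2(FPKM + 0.1) (13.3%, against 13.6% and 13.4% of all rows), and 16 with 1 surrogate variable (35.6% against 26.8%). Leaving out 1 library gave 3 (without HG_2) to 10, and 3 to 9 of the original 10 were still called. The 3 carriers past a fold of 1.5 at an unadjusted p under 0.05 became 0 on log2(FPKM + 1) with or without a mean FPKM of at least 1, and 2 to 4 without 1 library (2 without HG_2, HG_3, HG_4 or control replicate 4). The 2303 rows called became 4035 without both GC-rich libraries, 4008 with 1 surrogate variable and 1648 to 2993 without 1 library. With the GC and length trend removed they became 3968, among the 13538 rows with a GC value. SLC25A16 turned to -0.04 under all 3 FPKM settings (-0.0404 on log2(FPKM + 1), with or without the mean of at least 1, and -0.0441 on log2(FPKM + 0.1)), the only sign change among the 16 carriers followed in each setting, which are the 10 called and SLC25A1, SLC25A3, SLC25A4, SLC25A6, SLC25A44 and SLC25A53. Of their 349 values under alternatives, 273 kept their side of the threshold, 59 lost it, 14 gained it and 3 turned. The columns of both groups are numbered 1 to 5, but high glucose titles carry letters and no label gives the numbers a meaning. A fit with the column number as a replicate block, chosen after seeing the data, called 2 carriers, UCP2 and UCP3, and 1071 rows (4.44% against 7.17%). Deviations of same-numbered libraries correlated at -0.07 to 0.04, and 1 of 10 libraries correlated best with its own number. Carriers with few counts, such as UCP3 with 34 to 114 a library, and SLC25A12, which varied between libraries, have wide intervals, and a change of a carrier that was not called is limited only by its interval.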
